A study of Homo sapiens with 8 samples.

Results

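RSRC1 and SHOX2 are neighbouring genes on human chromosome 3, read in opposite directions with their starts facing each other, and no other protein-coding gene lies between them in RefSeq. Every deposited differential region that the authors annotated to either gene was taken, whether as promoter, 2 kb upstream, exon, intron, 2 kb downstream or UTR. This gave 37 regions of 22412 in the series, 32 of 8746 for H3K79me2 and 5 of 13666 for H3K79me3. The pair of genes was chosen by the number and the common positive sign of its H3K79me2 regions in these tables, so its scores, signs and numbers of regions are a description and carry no test.

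The study used ChIP-seq for the histone marks H3K79me2 and H3K79me3, di- and trimethylation of lysine 79 of histone H3, in MOLM-13, a human acute myeloid leukemia line with an MLL fusion gene. Cells carrying shNC, the control hairpin that another label field calls control siRNA, were compared with cells carrying ShLAMP5-AS1, whose hairpin by its name targets LAMP5-AS1, a noncoding RNA antisense to LAMP5. Each mark had 1 ChIP library and 1 input library per hairpin, 8 libraries in all, so no difference between hairpins has a replicate check. The growth field describes a culture grown from a xenograft and the treatment field names siRNAs against KLF11 and YAP, both at odds with the titles, which were followed here. Whether the hairpin cells were clones or pools is not given in the sources used here.

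The values are the authors' signed score per region, which has no stated unit. The sources do not define its sign, so "positive" and "negative" are used as deposited and do not say which hairpin had more of the mark. Library depth is unknown, because no read totals are given in the tables. Only regions that passed the authors' selection are listed, and a gene without a region may have had no signal or no difference. Positions are as deposited. Of the 34 intron regions of the locus, 0 lay inside the GRCh38 bounds of their gene, so the build is not GRCh38, and hg19 is the other build in the submitters' notes.

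H3K79 methylation is written by DOT1L, which in MLL-fusion leukemia is drawn to fusion target genes, and it normally covers the early part of transcribed genes, from the start into the first introns. RSRC1 encodes an arginine- and serine-rich protein of the SR-related family that takes part in pre-mRNA splicing, and inherited loss of the gene causes intellectual disability. SHOX2 encodes a homeodomain transcription factor, a close relative of SHOX, known for its part in limb growth and in the development of the heart's pacemaker in mice.

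The facing starts of the genes are shown because the strongest H3K79me2 region lay at the RSRC1 promoter while the SHOX2 regions lay inside the gene. Each sequence runs 5′ to 3′ on the strand of its gene, from 250 bases before to 50 bases after the start, from RefSeq on GRCh38.p14, with CpG dinucleotides in capitals. The RSRC1 window is chr3:158109839-158110138 on the plus strand and the SHOX2 window is chr3:158106114-158106413 on the minus strand.
RSRC1: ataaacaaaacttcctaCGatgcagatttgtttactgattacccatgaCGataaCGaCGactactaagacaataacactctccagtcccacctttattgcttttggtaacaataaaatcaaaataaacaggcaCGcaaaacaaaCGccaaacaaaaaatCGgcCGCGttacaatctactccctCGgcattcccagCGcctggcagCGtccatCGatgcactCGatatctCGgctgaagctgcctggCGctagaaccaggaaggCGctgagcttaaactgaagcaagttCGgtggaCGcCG
SHOX2: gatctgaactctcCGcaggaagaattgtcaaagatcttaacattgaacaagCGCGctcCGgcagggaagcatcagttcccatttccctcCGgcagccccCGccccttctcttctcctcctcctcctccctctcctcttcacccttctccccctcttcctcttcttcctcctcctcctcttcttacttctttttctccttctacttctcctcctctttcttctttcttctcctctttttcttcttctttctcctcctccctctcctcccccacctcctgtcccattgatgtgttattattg

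The starts differed in base composition. The RSRC1 window held 20 CpG dinucleotides and the SHOX2 window 6, against a median of 14 over 35116 RefSeq promoters of the same length. GC content was 47.0% for RSRC1 and 51.0% for SHOX2, both under the median of 58.7%. On its own strand the SHOX2 window was 79.3% C or T, more than 99.9% of promoters, and the RSRC1 window was 48.7%, near the median of 49.7%. Searched on both strands, the GC box GGGCGG was found 1 time at SHOX2 and 0 times at RSRC1, and 45.0% of promoters hold it. Neither window held the TATA box TATAAA (11.5% of promoters), the CCAAT box CCAAT (34.6%), the E-box CACGTG (7.26%) or the homeodomain core TAATTA (4.84%). Since the deposited regions are on another build, none was placed within these windows.

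All 32 H3K79me2 regions of the locus had a positive score, 11 in SHOX2 and 21 in RSRC1. Over all H3K79me2 regions 44.7% were positive, and 37.8% of the other 521 regions on chromosome 3 were (exact 95% interval 33.6 to 42.1, counting error only). No region of this mark within the locus was negative, and none between its first and last region was annotated to another gene. The 32 regions spanned 256 kb and covered 3782 bp.

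**Figure D1:**
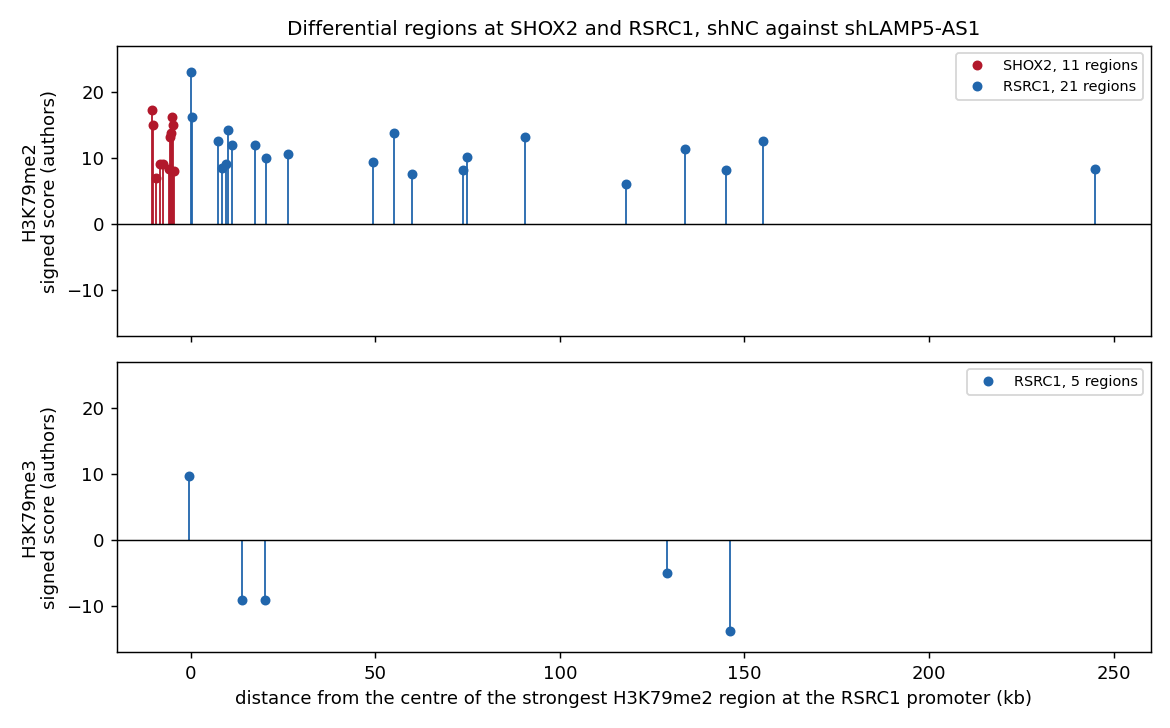
Signed scores of the 37 regions (vertical axis, authors' score, no unit) against the distance in kb from the centre of the strongest H3K79me2 region at the RSRC1 promoter (horizontal axis), with H3K79me2 above and H3K79me3 below; each stem is a region. All 32 H3K79me2 stems point up and thin out along RSRC1, while 1 H3K79me3 stem points up at the promoter and 4 point down inside RSRC1.

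SHOX2, the smaller of the genes, held its 11 H3K79me2 regions within 5.98 kb, all annotated to introns. The longest gap between them, 1347 bp, left 6 regions nearer to the start of the gene and 5 nearer to its end. The 6 regions near the start lay between 157821293 and 157822817, within 1.52 kb, and covered 945 bp. From the start inward their scores, from the authors' deposited table, were 8.0, 14.96, 16.22, 13.73, 13.19 and 8.41. The score was therefore highest inside this group and lower at both of its edges. The 5 regions nearer to the end lay between 157816838 and 157819946, and in the authors' deposited table they read 9.08, 9.08, 6.95, 14.96 and 17.25 in the same direction. The largest SHOX2 score thus stood at the far side from the start, at 157816838 to 157816923, where 94.6% of positive regions in the table had a smaller score. The median was 13.46 near the start and 9.08 near the end, with ranges that overlap.

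CpG annotation went with the SHOX2 regions. Of the 11, 10 were marked as the shore of a CpG island and 1 of these also as lying in an island, at 157821293 to 157821465. Over all H3K79me2 regions 12% were in a shore and 1.68% in an island. The 11 SHOX2 regions lay within 5.98 kb, so their CpG annotation describes 1 place and not 11 separate ones. At RSRC1, 2 of 21 regions were in a shore, both at the promoter. No H3K79me2 region was annotated to the promoter, exons or UTRs of SHOX2.

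Spacing was close in SHOX2. Its median gap between regions was 195 bp and its shortest 57 bp, against a median gap of 6.11 kb in RSRC1. A stretch as long as the SHOX2 group with at least 11 H3K79me2 regions was found at 3 places in the genome, SHOX2 included, counting stretches within 100 kb of each other as a single place.

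**Figure D2:**
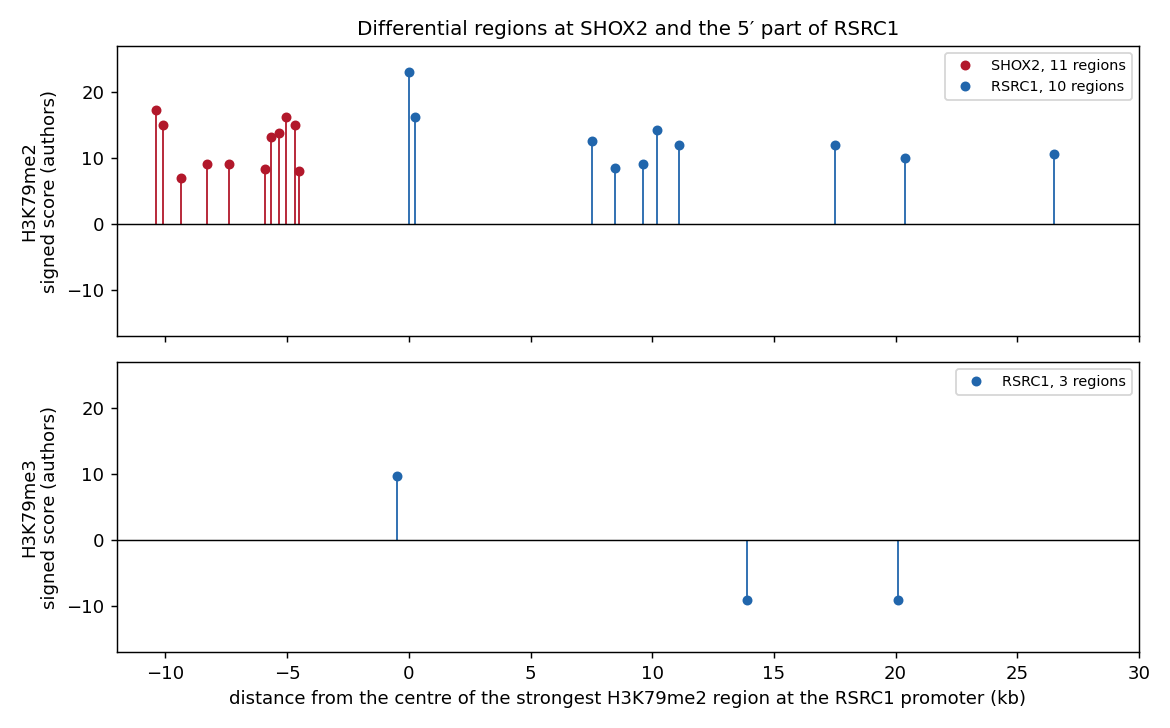
The same scores (authors' score, no unit) over SHOX2 and the first part of RSRC1, as distance in kb from the centre of the strongest H3K79me2 region at the RSRC1 promoter, with H3K79me2 above and H3K79me3 below. The 11 SHOX2 regions fall in a dense group near the gene's start and a looser group behind it. A gap of 4.36 kb without an H3K79me2 region separates them from the tallest stem, 22.98, at the RSRC1 promoter. The H3K79me3 promoter region lies inside this gap.

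RSRC1 carried the strongest H3K79me2 region of the locus at its promoter. The region at 157827173 to 157827396 was 223 bp wide, and the authors' deposited table gives it 22.98, rank 28 of 3911 positive regions. A second promoter region, 111 bp further into the locus at 157827507 to 157827584, had 16.22 in the authors' deposited table. Both were also annotated to the 2 kb upstream of RSRC1 and to a CpG shore. A gap of 4.36 kb lay between the SHOX2 regions and these, and 7.18 kb followed before the first intron region. Of 495 genes with an H3K79me2 region at the promoter, 15 had at least 2 positive ones, RSRC1 among them.

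Inside RSRC1 there were 19 further H3K79me2 regions, 18 in introns and the last, at 158072666 to 158072764, in an exon and an intron. The first 8 of these lay within 26.5 kb of the strongest promoter region. In order along the gene their scores in the authors' deposited table were 12.52, 8.44, 9.09, 14.21, 11.92, 11.92, 10.08 and 10.67. After a gap of 22.8 kb came 6 regions, for which the authors' deposited table lists 9.44, 13.73, 7.53, 8.26, 10.19 and 13.21. Beyond 100 kb the authors' deposited table gave 6.01, 11.34, 8.26 and 12.52, and a gap of 90.1 kb preceded the last region, 245 kb from the promoter, with 8.41. The scores inside the gene stayed between 6.01 and 14.21, all under both promoter scores.

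Regions were spaced further apart along RSRC1. There were 10 regions in the first 31 kb, promoter included, 6 in the next 70 kb, 4 in the next 60 kb and 1 in the 100 kb after that. These stretches stop at 260 kb, just past the last region. The end of the gene was not used to set them, and any part of RSRC1 beyond 260 kb held no H3K79me2 region. Median scores in these stretches were 11.9, 9.81, 9.80 and 8.41. Spearman's rho between score and distance was -0.46 over all 21 regions and -0.27 over the 19 without the promoter. These regions come from a single pair of libraries, and the rho is a description.

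In size most scores of the locus lay within the bulk of the table. The RSRC1 promoter regions (22.98 and 16.22) and the highest SHOX2 regions (17.25 and 16.22) exceeded at least 92.5% of positive regions. The median over the 32 regions was 11, against 10.2 over all positive H3K79me2 regions, and 17 of the 32 lay above that median. A score of at least 10 was reached by 19 of the 32, and by 52.6% of positive regions in the table. SHOX2 had a median of 13.2 and RSRC1 of 10.7. Scores came in steps. The 32 regions shared 24 values, and the 3911 positive regions of the table shared 256, so that equal scores at different sites are common. Median width was 99 bp, against 91 bp for positive regions of the table.

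**Figure D3:**
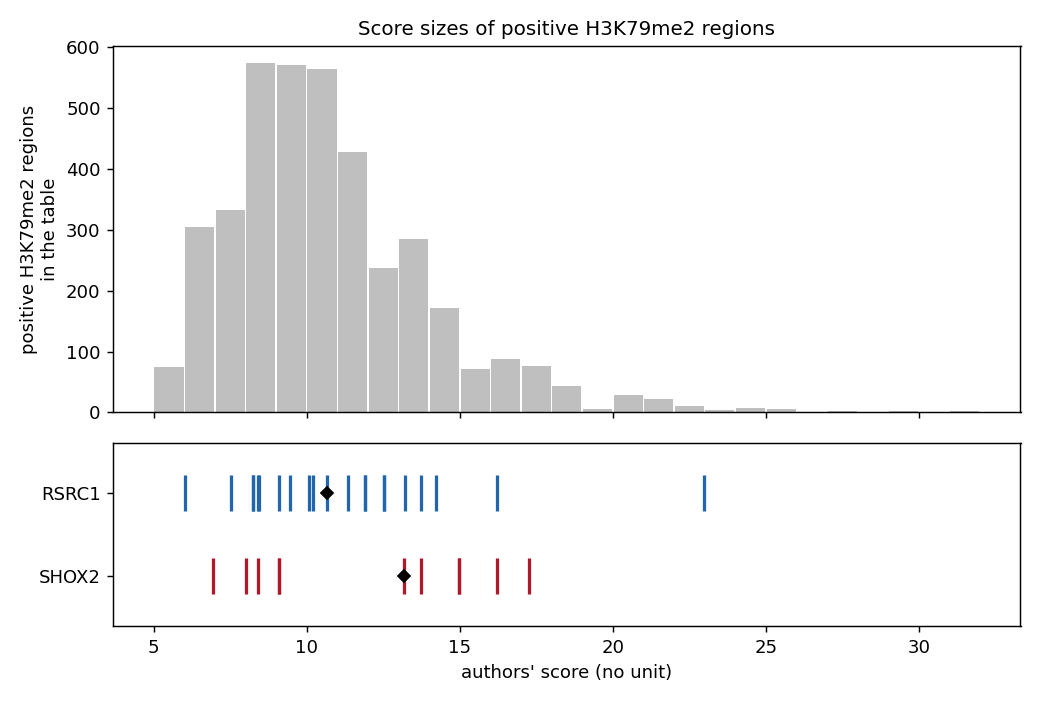
Number of positive H3K79me2 regions in the table per score unit (grey bars, upper panel, vertical axis from 0) and the score of each region in RSRC1 and SHOX2 (ticks, lower panel; diamonds are medians), with the authors' score, no unit, on the horizontal axis. Most regions of both genes sit within the bulk of the table. The RSRC1 promoter region at 22.98 lies above it, and several SHOX2 regions, up to 17.25, lie toward its upper end.

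The count and common sign of the regions placed both genes high in the H3K79me2 table, which is what they were chosen for. Of 3770 genes named in that table, 1231 (32.7%) had positive regions only, and the median gene had 1 region. RSRC1 had 21 positive regions and none negative, and 5 genes with positive regions only, RSRC1 included, had at least as many. PDE7A also had 21, LRRC8C had 22 and GAB2 had 23. SHOX2, with 11, was among 12 genes with positive regions only and at least as many of them. Along chromosome 3 the 32 regions and the unannotated one before them formed a run of 33 positive regions without a negative one between.

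**Figure D4:**
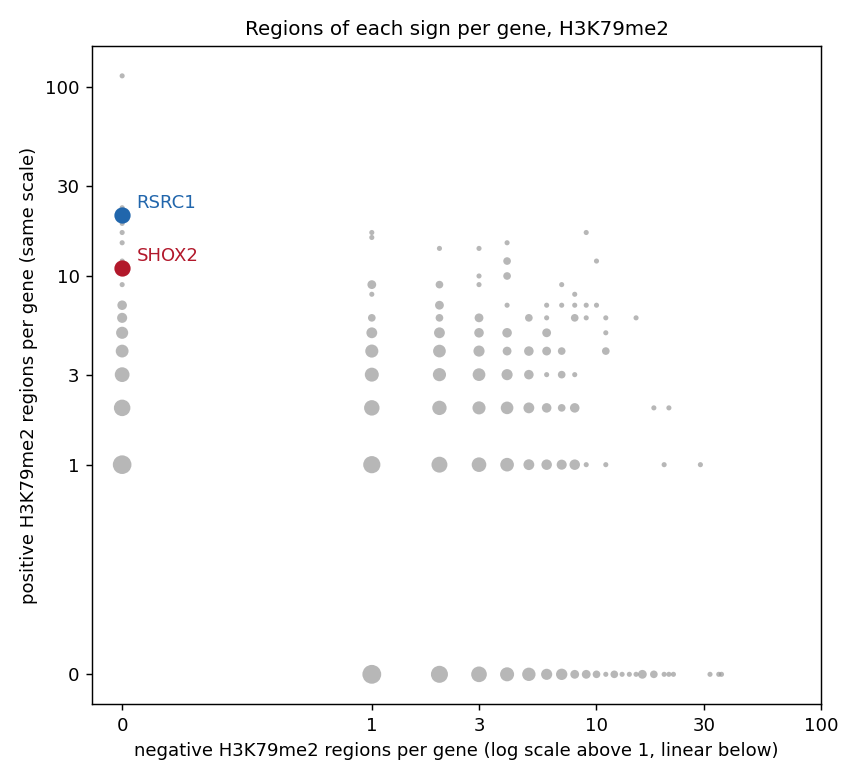
Each grey point is a combination of negative (horizontal axis) and positive (vertical axis) H3K79me2 regions per gene, larger where more of the 3770 genes share it; both axes are linear up to 1 and logarithmic above. RSRC1, with 21 positive regions, and SHOX2, with 11, lie on the left edge, where genes have no negative region.

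H3K79me3 gave a sparser picture at the same locus. SHOX2 had 0 regions of this mark and RSRC1 had 5, which 732 of 4165 genes equalled or exceeded. At the RSRC1 promoter, 157826729 to 157826833, the score was 9.66 in the authors' deposited table, a positive value where 2.47% of the table is positive. The other 4 RSRC1 regions, all in introns, were negative, as were 97.5% of all H3K79me3 regions, so their sign is that of the table. In order along the gene they had -9.08, -9.08, -5.01 and -13.73 in the authors' deposited table, and -5.01 equals the smallest score size that the table holds.

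The H3K79me3 regions on either side of the promoter region were negative. The one before it on chromosome 3 was 951 kb away in CCNL1, with -14.30 in the authors' deposited table, and a positive region, also in CCNL1, came before that with 6.95 in the authors' deposited table. After the promoter region, 200 negative regions followed without a positive one, the 4 of RSRC1 first. The score of the promoter region was mid-range, with 47.8% of the 337 positive H3K79me3 regions below it. Of 976 genes with an H3K79me3 region at the promoter, 20 (2.05%) had a positive one there. Promoter regions of both marks were found for 95 genes, and RSRC1 was the 1 gene among them with positive regions only in both. Of all H3K79me2 regions 44.7% were positive, and the locus was chosen for its positive regions of that mark. This count is therefore a description and does not set RSRC1 apart.

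Regions of the marks did not coincide at the locus. None of the 5 H3K79me3 regions shared a base with an H3K79me2 region, and over all H3K79me3 regions 1.16% did. Some regions of the marks lay near each other, at a locus chosen for its many H3K79me2 regions. How often this occurs over all H3K79me3 regions was not counted. The H3K79me3 promoter region ended 340 bp before the strongest H3K79me2 region, with the same sign. In the introns the negative H3K79me3 region at 157847375 to 157847455 lay 182 bp from a positive H3K79me2 region, for which the authors' deposited table gives 10.08. The most negative one, at 157973310 to 157973394, lay 938 bp from a positive region with 8.26 in the authors' deposited table. The remaining pair were 2.63 kb and 4.87 kb from their nearest H3K79me2 region.

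Within the introns of RSRC1 the marks thus carried opposite signs, with 19 of 19 H3K79me2 regions positive and 4 of 4 H3K79me3 regions negative. Intron regions of both marks outside promoters were found for 1832 genes, and 413 of them (22.5%) had positive H3K79me2 and negative H3K79me3 regions only. With at least 4 regions of each mark there were 10 such genes, RSRC1 with the most H3K79me2 regions and FAM107B next with 11. The cutoff of 4 equals the number of H3K79me3 regions in the introns of RSRC1. How many genes of any sign reach this cutoff in both marks is not given here, so the 10 cannot be called many or few. The locus was chosen for its number of positive H3K79me2 regions, so this rank is a description. The scores of the marks come from separate tables and their sizes were not set against each other.

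No H3K79me2 region was found close to the locus on either side. The nearest H3K79me2 region before SHOX2 was 923 kb away, outside any gene, with 8.0 in the authors' deposited table. The nearest one after the last RSRC1 region was 1860487 bp away, also outside any gene, with -14.96 in the authors' deposited table. Of 14 chromosome 3 neighbours, 2 had an H3K79me2 region, each a single negative one, and 17% of 20056 RefSeq protein-coding genes had a region of this mark. These were CCNL1, which encodes a cyclin that acts in splicing, with -9.32 in the authors' deposited table, and TIPARP, a mono-ADP-ribosyltransferase gene, with -6.61. MLF1, the next protein-coding gene beyond RSRC1, and PTX3, the next beyond SHOX2, had 0 regions of either mark. KCNAB1, VEPH1, GFM1, LXN, RARRES1, IQCJ and SCHIP1 also had none.

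For H3K79me3, 4 of the 14 neighbours had regions, where 18% of protein-coding genes had one. Of their 7 regions 6 were negative and 1 was positive, and 97.5% of all H3K79me3 regions were negative. CCNL1 had 2 negative and 1 positive, and LEKR1 had 2 negative with a largest size of -9.51 in the authors' deposited table. SSR3, a subunit gene of the translocon-associated complex, had -10.74 and MFSD1, a membrane transporter gene, -8.32 in the authors' deposited table. The single positive H3K79me3 score among the neighbours was therefore in CCNL1, the nearest of the listed genes with a region on the SHOX2 side.

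A list of SR and SR-related splicing genes, drawn around the family of RSRC1 and including kinases, had region signs near those of the whole tables. Counted by gene, more of them were positive only than negative only for H3K79me2, the reverse of all genes in that table. Of 33 such genes, 29 had H3K79me3 regions, where 18% of 20056 RefSeq protein-coding genes had one. All 118 of these regions were negative, as were 97.5% of all regions, and 94.2% of genes in the table had negative regions only. For H3K79me2, 20 of the 33 had regions, where 17% of protein-coding genes had one. Both background shares count all protein-coding genes, transcribed in these cells or not, since expression is not in these data. The higher shares in the list therefore cannot be read as particular to this family. There were 16 positive and 16 negative regions, where 44.7% and 55.3% of all regions had these signs. Of the 20 genes, 10 were positive only, 6 negative only and 4 both, where 32.7% and 41.6% of all genes in the table were positive only and negative only. The median of their largest scores, taken with sign, was 6.84 for H3K79me2 and -13.3 for H3K79me3. The H3K79me2 scores had both signs, so 6.84 does not describe a typical size. LUC7L3, a splicing factor of the U1 particle, had 1 positive H3K79me2 region (9.99) and 14 negative H3K79me3 regions down to -23.11 in the authors' deposited table. TRA2B, a splicing activator, had 2 negative H3K79me2 regions and 12 negative H3K79me3 regions. SON, a nuclear speckle protein, had 1 H3K79me2 region of each sign and 11 negative H3K79me3 regions, and LUC7L2 had 1 of each sign and 9 negative ones. Each of these genes had at most 2 H3K79me2 regions, against 21 in RSRC1, which was chosen for that number. Gene length was not taken into account, so the contrast does not set RSRC1 apart from its family.

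Of 10 genes related to SHOX2 in development, 1 had regions of either mark, RUNX2, a transcription factor of bone formation. Of protein-coding genes, 17% had an H3K79me2 region and 18% an H3K79me3 region. RUNX2 had 35 H3K79me2 regions, all negative, down to -17.84 in the authors' deposited table. It also had 39 negative H3K79me3 regions, down to -23.06 in the authors' deposited table. Over all regions, 55.3% for H3K79me2 and 97.5% for H3K79me3 were negative. BMP4, HCN4 and ISL1 had 0 regions of either mark.

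By the numbers of negative and positive regions in both marks, the 5 of 5815 other genes nearest to RSRC1 were SDC2, GAB2, LRRC8C, PDE7A and ERBIN. The measure was the distance over the 4 numbers on a log2 scale after adding 1. SDC2, a cell-surface proteoglycan gene, was at a distance of 0.14, with 19 positive H3K79me2 regions and 4 negative and 1 positive H3K79me3 regions. GAB2, an adaptor of receptor signalling, followed at 0.35, with 23 positive H3K79me2 regions and 3 negative and 1 positive H3K79me3 regions. LRRC8C, an anion channel subunit gene, was at 1.05, the phosphodiesterase gene PDE7A at 1.21 and ERBIN at 1.46. For SHOX2, 0 other genes had the same 4 numbers. This asked for an exact match, unlike the distance used for RSRC1, and genes with nearly the same numbers exist, so it does not set SHOX2 apart.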

How the data were processed

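The authors deposited, for each mark, 1 list of regions that differ between the hairpins. Per the submitters' processing notes, the tools included Bowtie2, MACS2 2.1.1, bedtools and DESeq2, with no role or order given; GRCh38, hg38 and hg19 appear as builds. Which of these made the score is not given in the sources used here. Per the file headers, each row gives a region, a signed score and annotation columns; the score was made by the authors and has no stated unit.

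Regions were taken where RSRC1 or SHOX2 stood in columns 6 to 12. Older symbols were mapped to RefSeq (GRCh38.p14), which was used for names, gene order and promoter sequence. Overlap of marks needed 1 bp. Shares carry exact 95% binomial intervals, which cover counting error only. With 1 library per group no test between hairpins was made. The members and gene lists were chosen with earlier results of these data known. Named genes were the members, the 14 chromosome 3 neighbours, up to 4 genes per list and the 5 nearest to RSRC1; genes named for their rank in the table or for spacing were chosen after their values were seen. The functions were tested on simulated data with Python 3.11.15. The packages were scipy 1.17.1, pandas 2.3.3, matplotlib 3.10.9 and numpy 2.4.6. Some genes that the rule or a rank would name are not reported here.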

Additional observations from a re-analysis of the deposited data

Results flagged for a closer look

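In the introns of RSRC1 all 19 H3K79me2 regions were positive and all 4 H3K79me3 regions were negative, although both tables compare the same hairpins. The H3K79me3 sign is that of 97.5% of all its regions, and 413 of 1832 genes with intron regions of both marks (22.5%) showed the same opposition. The difference between the marks was not tested, since each mark has a single pair of libraries. At the RSRC1 promoter both marks had positive regions only.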

How the results depend on the processing

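No paired analysis was possible because each group held 1 library and the labels give no replicate numbers. For the same reason no library could be left out. Of 22 alternative values, 15 stayed close to those reported and 7 moved. All were counts, shares or score sizes, so none could change sign. Some could not move at all. The 0 negative H3K79me2 regions and the 0 overlaps could not grow under a stricter score, a stricter overlap or merging. The narrowest H3K79me2 and H3K79me3 regions, 67 bp and 63 bp wide, passed the 50 bp width limit. At a score size of at least 10, 19 of the 32 positive H3K79me2 regions remained, and H3K79me3 kept 1 negative and 0 positive regions, so the positive RSRC1 promoter region of that mark is absent there. Merging regions of the same sign within 5 kb left 13 positive H3K79me2 stretches. With a distance of up to 1 kb in place of overlap, 3 of the 5 H3K79me3 regions had an H3K79me2 region beside them. The same share over all H3K79me3 regions was not counted. The share of negative regions was 62.2% for H3K79me2 and 98.6% for H3K79me3 on the rest of chromosome 3, against 55.5% and 97.5% in the rest of the tables. Unknown depth limits what a missing region means, at SHOX2 for H3K79me3 in particular.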
